A study of Arabidopsis thaliana with 30 samples.

Results

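The genes described here are the 40 nuclear genes of Arabidopsis thaliana that encode the light-harvesting antenna proteins and the small and oxygen-evolving subunits of the photosystems. They were chosen by gene identifier, with earlier results of these data known, from the 33498 genes of the count table. They comprise 18 antenna genes (4 LHCA genes for the antenna of photosystem I and 14 LHCB genes for that of photosystem II), 12 photosystem I genes (PSA) and 10 photosystem II genes (PSB). All 40 had a row, and all 40 passed the filter on low counts.

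RNA was sequenced from the whole aerial parts of untreated seedlings aged 15 days, with 3 libraries for each of 10 lines. The parents were the accessions C24 and Landsberg erecta (Ler), and C24XLer and LerXC24 were their reciprocal F1 hybrids, made by hand pollination. The F6 lines came from recurrent selection after the same cross (the hybrid mimics are HM-G, HM-S and HM-W, and the other F6 lines are Sml-D, Med-E and Med-F), so all 10 lines carry only C24 and Ler alleles. The 3 libraries of a parent or F1 hybrid are labelled as biological replicates and those of an F6 line as siblings, whether from single plants or pools is not said, and p-values reflect variation among these libraries only, which may be technical. Each F6 line is 1 selected lineage. All seedlings grew on medium with sucrose, which also feeds the plant apart from photosynthesis.

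Photosystem II oxidises water and photosystem I reduces ferredoxin, and both receive excitation energy from chlorophyll a/b-binding antenna proteins. LHCB1, LHCB2 and LHCB3 build the main trimeric antenna of photosystem II, LHCB4, LHCB5 and LHCB6 are its monomeric linkers (CP29, CP26 and CP24), and LHCA1 to LHCA4 form the belt on photosystem I. The reaction-centre cores are encoded in the plastid, while the genes described here are nuclear, and their messages are known to follow light, the circadian clock and the GLK transcription factors.

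The libraries held 41600826 to 53397900 reads. Same-line libraries correlated at r = 0.983 to 0.993 over genes, and 29268 genes were tested. Levels are in CPM, with TMM factors applied to the library totals, and are given as mean ± SD of 3 libraries, and changes are log2 estimates ± standard error from edgeR's quasi-likelihood test with Benjamini-Hochberg adjustment over all genes tested. Mesophyll markers were high in every line (the 4 RBCS genes summed to 23433 to 32270 CPM as line means), and 4 root markers summed to 57.2 to 226 CPM. Reads placed at multiple loci were 4.66% of the total in HM-S 1 and 4.04% in HM-W 1, and 0.139 to 2.55% in the other libraries. In such bulk samples, fewer mesophyll cells and less of a message per cell cannot be told apart.

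Together the 40 genes took between 10.4% ± 0.42 of all counts in HM-S and 13.8% ± 0.40 in C24. Per kilobase of exon, LHCB1.3 was the most abundant member (10247 CPM per kb on average), followed by LHCB1.5 (6595), LHCB1.2 (5614) and LHCA1 (5118). The lowest was LHCB4.3, a CP29 form also called LHCB8, at 31.9 CPM per kb. Close copies here means the LHCB1 and LHCB2 genes. Only 20 members are outside these and free of overlap with another counted gene. Of the 20, 6 are antenna genes, 6 are of photosystem I and 8 of photosystem II. They still hold PSAD1, 86.0% identical to PSAD2 in exon sequence, and PSBO1 and PSBO2 (83.5%). Exon sequences of LHCB2.1 and LHCB2.2 were 94.3% identical over 1035 aligned bases, those of LHCB1.1 and LHCB1.2 93.6% and those of LHCB1.4 and LHCB1.5 91.4%. The sources used here do not say how reads were shared between such copies, so values of single LHCB1 and LHCB2 genes are uncertain, and so are those of the 15 members that overlap another gene.

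The 250 bases before the annotated start of 6 antenna genes and 2 photosystem I genes are shown as examples of windows with and without CCAATC, the motif that most separates the subsets. They were picked for their motifs, not for how the genes moved. The sequences are from the RefSeq TAIR10.1 reference, 5′ to 3′, and not from C24 or Ler. Capitals mark matches on either strand to 5 motifs: CCAATC, linked in Arabidopsis to genes under GLK control, CACGTG (the G-box), GATAAG (the I-box), AAAATATCT (the evening element) and AAAAATCT (a CCA1 binding site). None of these motifs contains another. The windows are LHCB1.3 at chr1:10477635-10477884 (plus strand), LHCB1.5 at chr2:14523569-14523818 (minus strand), LHCB2.1 at chr2:1824481-1824730 (minus strand), LHCB2.2 at chr2:1800473-1800722 (minus strand), LHCA3 at chr1:22699465-22699714 (plus strand), LHCA4 at chr3:17495034-17495283 (minus strand), PSAD1 at chr4:1230165-1230414 (minus strand) and PSAF at chr1:11216142-11216391 (minus strand).
LHCB1.3: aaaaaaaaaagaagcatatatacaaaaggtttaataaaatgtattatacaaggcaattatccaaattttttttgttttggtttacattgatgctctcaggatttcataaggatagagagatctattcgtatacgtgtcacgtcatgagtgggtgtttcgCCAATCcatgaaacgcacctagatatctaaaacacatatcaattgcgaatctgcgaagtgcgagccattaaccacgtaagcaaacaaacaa
LHCB1.5: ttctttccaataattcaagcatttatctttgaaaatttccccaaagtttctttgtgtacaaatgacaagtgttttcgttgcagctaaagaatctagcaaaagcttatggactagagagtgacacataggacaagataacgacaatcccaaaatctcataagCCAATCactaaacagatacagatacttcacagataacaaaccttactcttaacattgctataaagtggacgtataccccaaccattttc
LHCB2.1: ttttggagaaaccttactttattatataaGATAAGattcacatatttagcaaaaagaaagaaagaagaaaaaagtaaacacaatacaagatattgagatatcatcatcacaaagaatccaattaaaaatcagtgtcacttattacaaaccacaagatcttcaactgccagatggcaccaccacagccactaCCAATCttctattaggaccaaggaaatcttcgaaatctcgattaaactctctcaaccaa
LHCB2.2: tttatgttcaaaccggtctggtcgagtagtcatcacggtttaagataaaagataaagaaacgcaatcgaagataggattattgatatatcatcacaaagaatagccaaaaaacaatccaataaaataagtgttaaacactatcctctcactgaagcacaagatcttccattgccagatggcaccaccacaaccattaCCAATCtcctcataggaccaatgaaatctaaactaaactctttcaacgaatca
LHCA3: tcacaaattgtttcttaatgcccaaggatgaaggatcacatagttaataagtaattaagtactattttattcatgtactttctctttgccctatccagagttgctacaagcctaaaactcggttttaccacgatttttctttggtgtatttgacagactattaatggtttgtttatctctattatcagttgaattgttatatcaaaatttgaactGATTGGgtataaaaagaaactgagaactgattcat
LHCA4: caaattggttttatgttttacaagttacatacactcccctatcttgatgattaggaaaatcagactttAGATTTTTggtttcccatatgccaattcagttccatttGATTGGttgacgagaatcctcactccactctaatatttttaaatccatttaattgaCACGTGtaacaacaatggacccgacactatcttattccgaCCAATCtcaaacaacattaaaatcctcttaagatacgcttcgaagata
PSAD1: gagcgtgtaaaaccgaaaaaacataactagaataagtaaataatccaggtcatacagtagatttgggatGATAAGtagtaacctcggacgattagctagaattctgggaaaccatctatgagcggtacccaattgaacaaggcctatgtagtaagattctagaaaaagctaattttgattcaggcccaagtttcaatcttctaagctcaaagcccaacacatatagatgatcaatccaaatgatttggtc
PSAF: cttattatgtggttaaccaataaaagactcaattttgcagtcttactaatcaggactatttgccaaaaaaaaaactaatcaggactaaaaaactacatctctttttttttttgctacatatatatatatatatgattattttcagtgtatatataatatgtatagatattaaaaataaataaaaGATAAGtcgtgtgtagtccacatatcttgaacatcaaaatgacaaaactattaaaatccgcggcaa

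CCAATC lay in the window of 10 of 18 antenna genes (55.6%), of 0 of 12 photosystem I genes and of 1 of 10 photosystem II genes, PSBQ2, against 10.2% of the windows of 26706 counted protein-coding genes. In the sequences above it begins 91 bases before the start in LHCB1.3, 89 in LHCB1.5, 59 in LHCB2.1, 53 in LHCB2.2 and 35 in LHCA3, and LHCA4 has it at 144 and at 48. The G-box was in 4 antenna, 2 photosystem I and 2 photosystem II windows (6.58% of all genes), and the I-box in 4, 4 and 1 (12.2%). The evening element was in 0 of the 40 windows (2.4% of all genes), and the CCA1 site in 3, 2 and 0 (6.74%). CCAATC was not in the windows of LHCB1.2, LHCB3, LHCB5 and LHCB6, and it was in those of LHCB1.3, LHCB1.5, LHCB2.1 and LHCA3. Genes with and without it are thus among the most changed members in the comparisons described here. A match describes these letters in this window and is not a measured binding site.

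Levels differed among the 10 lines at 39 of the 40 genes, LHCB1.1 being the exception (adjusted p = 0.0538), in a table where 65% of all genes tested passed the same test. All 40 passed an unadjusted p under 0.05. The spread was modest: the highest line mean exceeded the lowest by 1.23-fold (PSAH2, a docking subunit for the mobile antenna) to 2.33-fold (LHCB1.2), with a median of 1.62 for antenna, 1.45 for photosystem I and 1.48 for photosystem II genes. The median was 1.54 over all 173 genes of at least 500 CPM. HM-S had the lowest mean at 19 members, 13 of them antenna genes. Med-F had it at 18, of which 4 were antenna, 7 photosystem I and 7 photosystem II genes. C24 had the highest mean at 14 members, 10 of them antenna genes, HM-G at 12 and LerXC24 at 6, of which 5 were photosystem I genes.

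**Figure D1:**
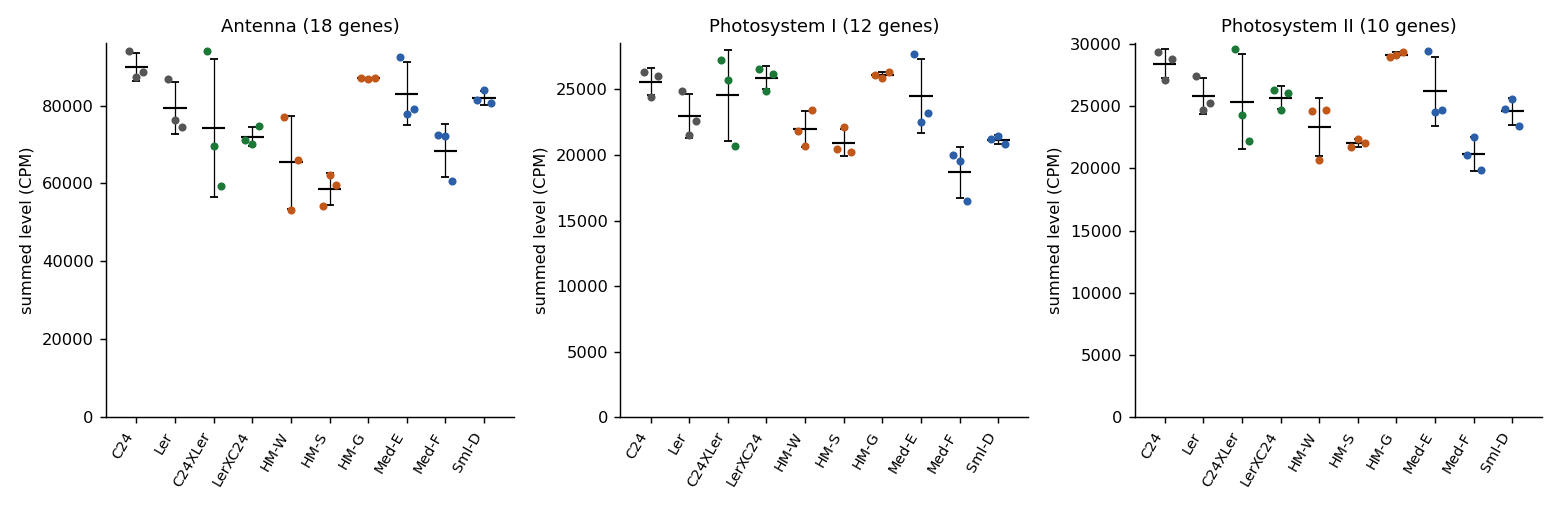
Summed levels (CPM, vertical axis) of the antenna, photosystem I and photosystem II genes in each library (points), by line, with the mean (bar) and SD (whiskers) of 3 libraries; grey are parents, green F1 hybrids, orange hybrid mimics and blue the other F6 lines. Antenna sums were lowest in HM-S (58654 ± 4061 CPM) and photosystem I sums in Med-F (18684 ± 1925), and C24XLer A and HM-W 1 stood above the other libraries of their lines in the antenna panel.

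Antenna sums were 89989 ± 3597 CPM in C24, 79260 ± 6646 in Ler, 86963 ± 93 in HM-G, 83080 ± 8080 in Med-E and 81953 ± 1764 in Sml-D. They were 74299 ± 17735 in C24XLer and 72013 ± 2406 in LerXC24. The lowest were Med-F at 68435 ± 6737, HM-W at 65403 ± 11979 and HM-S at 58654 ± 4061. Photosystem I sums ran in another order, from 18684 ± 1925 in Med-F and 20950 ± 1058 in HM-S to 25902 ± 870 in LerXC24 and 26129 ± 214 in HM-G. Photosystem II sums were lowest in Med-F (21163 ± 1347) and HM-S (22054 ± 310) and highest in HM-G (29128 ± 196).

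Between the parents, 5 of 40 genes differed, 4 higher in C24 and 1 higher in Ler, where 25.8% of all genes differed (13.3% higher and 12.5% lower in C24). LHCB1.2 (AT1G29910, chromosome 1, 10472280 to 10473502), 1 of the 5 LHCB1 genes of the main antenna, was at 9936, 9220 and 8777 CPM in C24 and at 7273, 6328 and 5656 CPM in Ler. The libraries of the parents did not overlap, and the log2 change was 0.54 ± 0.16 (adjusted p = 0.0143). LHCA3 (AT1G61520, chromosome 1, 22699715 to 22701412), of the photosystem I belt, went the other way, at 4200, 3793 and 4277 CPM in C24 and 6161, 5676 and 5790 CPM in Ler. Its change was -0.52 ± 0.16 (adjusted p = 0.0194), again without overlap.

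PSAE1 and PSAE2 encode the stromal subunit PsaE. PSAE2 was at 550, 558 and 557 CPM in C24 and 431, 430 and 446 CPM in Ler, a change of 0.35 ± 0.11 (adjusted p = 0.0181) with a narrow spread in both parents. PSAE1 was at 2182, 2129 and 2115 CPM in C24 and 1984, 1582 and 1666 CPM in Ler, a change of 0.30 ± 0.11 (adjusted p = 0.0406). The CP29 gene LHCB4.2 was higher in C24 by 0.31 ± 0.11 (adjusted p = 0.0332). No photosystem II gene passed. PSBW, a small subunit, was at 3132, 2745 and 3206 CPM in C24 and 2724, 2283 and 2335 CPM in Ler, which do not overlap (0.31 ± 0.12, adjusted p = 0.0574). PSBQ2, of the oxygen-evolving complex, was at 2608, 2469 and 2723 CPM against 2186, 2118 and 2158 CPM (0.27 ± 0.10, adjusted p = 0.0567).

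The estimate was above 0 at 34 of the 40 genes, with medians of 0.13 for antenna, 0.15 for photosystem I and 0.15 for photosystem II genes, against 0.01 for all genes. The count of 5 fell to 3 without C24 A or C24 C and to 2 without Ler B or Ler C. With the parents alone in the fit it was 10. Cell type markers differed too: 3 of 4 root and 1 of 3 epidermis markers were higher in C24 (beside 13.3% of all genes). Lower in C24 were 3 of 3 flower and 1 of 2 phloem markers (beside 12.5%), and 0 of 4 RBCS genes passed. The same parent libraries set the mid-parent used below, and the part of these markers was not tested.

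The F1 hybrids were compared with the mid-parent, their average log2 level. Of the 40 genes 6 changed, 4 down (3 of 18 antenna genes and 1 of photosystem II) and 2 up (both PsaD genes), where 11.5% of all genes changed (4.45% down and 7.1% up). The 3 antenna genes that fell were LHCB3, which joins LHCB1 and LHCB2 in some trimers, and the linkers LHCB6 (CP24) and LHCB5 (CP26).

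LHCB3 (AT5G54270, chromosome 5, 22038165 to 22039568) was at 7341, 6370 and 6752 CPM in C24 and 6801, 6290 and 6366 CPM in Ler. In the hybrids it was at 6536, 4218 and 4083 CPM in C24XLer A, B and C and at 4970, 4370 and 4512 CPM in LerXC24. All hybrid libraries except C24XLer A lay below all parent libraries, and the change was -0.48 ± 0.10 (adjusted p = 0.00536). LHCB6 showed the same layout, at 3611, 3189 and 3138 CPM in C24, 3164, 3037 and 3060 CPM in Ler, 3372, 2044 and 2083 CPM in C24XLer and 2314, 2117 and 2241 CPM in LerXC24. Its change was -0.44 ± 0.11 (adjusted p = 0.013), and that of LHCB5 was -0.38 ± 0.11 (adjusted p = 0.0207). LHCB3, LHCB6 and PSAD2 each overlap a counted neighbour.

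PsaD is the stromal subunit that docks ferredoxin at photosystem I. PSAD2 (AT1G03130, chromosome 1, 753307 to 754262) was at 1026, 1017 and 1147 CPM in C24 and 1075, 886 and 921 CPM in Ler. It was at 1056, 1467 and 1049 CPM in C24XLer and at 1451, 1413 and 1466 CPM in LerXC24, so that all LerXC24 libraries and C24XLer B stood above every parent library. The change was 0.38 ± 0.10 (adjusted p = 0.0208), and PSAD1, the other PsaD gene (86.0% identity), rose by 0.29 ± 0.07 (adjusted p = 0.0135). PSAN, a lumenal subunit, was at 1860, 1588 and 1867 CPM in C24, 1839, 1757 and 1847 CPM in Ler, 1839, 1076 and 1165 CPM in C24XLer and 1509, 1354 and 1422 CPM in LerXC24 (-0.36 ± 0.13, adjusted p = 0.0769).

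In photosystem II, PSBX, a small intrinsic subunit, was at 2553, 2512 and 2682 CPM in C24, 2513, 2112 and 2268 CPM in Ler, 2527, 1733 and 1654 CPM in C24XLer and 2191, 1915 and 2028 CPM in LerXC24. It fell by 0.28 on the log2 scale (adjusted p = 0.032), with C24XLer A and LerXC24 A inside the parental range. PSBY, another small subunit, was at 1384, 1254 and 1264 CPM in C24, 1404, 1062 and 1030 CPM in Ler, 1465, 1758 and 1260 CPM in C24XLer and 1645, 1493 and 1470 CPM in LerXC24 (0.30 ± 0.10, adjusted p = 0.0517).

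Beyond the calls, the estimate was below 0 at 18 of 18 antenna genes (median -0.20) and at 8 of 10 photosystem II genes (median -0.13), and above 0 at 8 of 12 photosystem I genes (median 0.03). The median of all genes was 0.01. Among members without close copies or overlaps the antenna median was -0.12. The count of 6 depended on C24XLer A, whose antenna sum (93934 CPM) lay within the range of C24 (87288 to 94072). Without it 19 genes passed, 17 down and 2 up. Among them were PSAN (-0.50 ± 0.12, adjusted p = 0.00775) and LHCB1.2 (-0.38 ± 0.10, adjusted p = 0.0147). Without C24XLer B 2 passed. The share of all genes called in these refits is not given here.

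**Figure D2:**
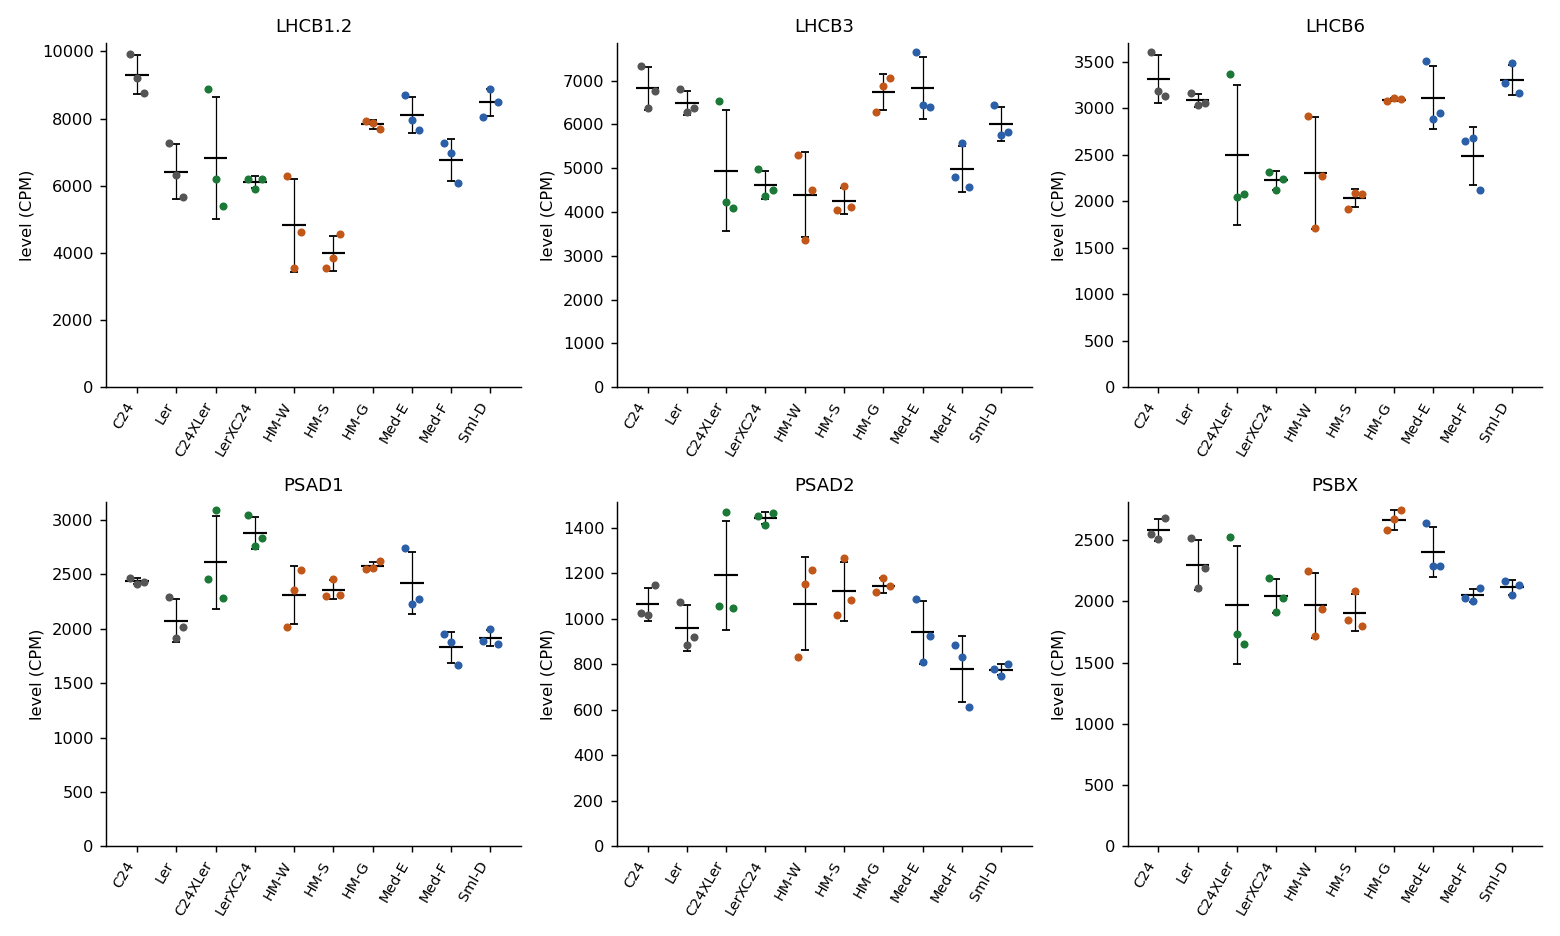
Levels (CPM, vertical axis) of LHCB1.2, LHCB3, LHCB6, PSAD1, PSAD2 and PSBX in each library (points), by line, with mean (bar) and SD (whiskers) of 3 libraries and colours for parents (grey), F1 hybrids (green), hybrid mimics (orange) and other F6 lines (blue). LHCB3 was lower in every LerXC24, HM-W and HM-S library than in every parent library, and PSAD2 was lowest on average in Med-F (778 ± 144) and Sml-D (776 ± 25).

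Each hybrid was also set against the mid-parent they share.  LerXC24 changed at 5 genes, 3 down and 2 up (16.5% of all genes changed, 6.32% down and 10.1% up): LHCB3 (-0.53 ± 0.13), LHCB6 (-0.52 ± 0.14), LHCB5 (-0.43 ± 0.13), PSAD2 (0.51 ± 0.12) and PSAD1 (0.36 ± 0.09). Without LerXC24 B or LerXC24 C only PSAD1 and PSAD2 passed. C24XLer changed at 0 genes by edgeR, where 2.34% of all genes changed (0.461% down and 1.88% up). In that hybrid 10 members had an unadjusted p under 0.05, DESeq2 called 1, and 9 passed without C24XLer A, all down, led by LHCB3 (-0.68 ± 0.12, adjusted p = 0.0017). Between the reciprocal hybrids 0 members passed by edgeR and 0 by DESeq2, with 0 at an unadjusted p under 0.05 (4.91% of all genes differed, 2.57% higher and 2.34% lower in LerXC24). The direct difference at PSAD2, LerXC24 minus C24XLer, was 0.28 ± 0.15 (adjusted p = 0.305).

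HM-S had the broadest decrease of antenna messages. Against the mid-parent 27 of 40 genes fell and 0 rose, where 29.5% of all genes changed, 14.4% down and 15.1% up. The 27 comprised 14 of 18 antenna, 6 of 12 photosystem I and 7 of 10 photosystem II genes. The 6 largest decreases were in the antenna of photosystem II: LHCB1.2 (-0.95 ± 0.14, adjusted p = 3.71e-05), LHCB1.5 (-0.79 ± 0.16), LHCB2.1 (-0.66 ± 0.15), LHCB6 (-0.66 ± 0.14), LHCB3 (-0.65 ± 0.13) and LHCB1.3 (-0.64 ± 0.14). The other 21 ranged from -0.58 (LHCB5) to -0.19 (PSAH1). LHCB1.2 was at 3557, 3853 and 4559 CPM in HM-S 1, 2 and 3, below every library of both parents (5656 to 9936 CPM).

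Medians in HM-S were -0.40 for antenna, -0.26 for photosystem I and -0.27 for photosystem II genes, against 0.01 for all genes. LHCB genes had 12 of 14 down and a median of -0.54, and LHCA genes 2 of 4 down and a median of -0.28. The difference between the families was not tested. In photosystem II the largest decreases were PSBR, a lumenal subunit (-0.54 ± 0.11, adjusted p = 0.000763), and PSBO2, a copy of the manganese-stabilising protein (-0.46 ± 0.08, adjusted p = 0.000309). The PsaD genes were at 0.15 ± 0.13 (PSAD2) and 0.07 ± 0.09 (PSAD1) and did not pass. Without HM-S 1, which had the highest share of multiple-locus reads, the count was 16. Of the 4 RBCS genes, the mesophyll markers, 2 also fell in HM-S (RBCS1B at -0.52 and RBCS2B at -0.32, list median -0.20), and their part in the result was not tested.

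In HM-W 16 genes fell and 0 rose, where 24.7% of all genes changed, 12.1% down and 12.6% up. They were 9 antenna, 2 photosystem I and 5 photosystem II genes. The 6 largest were LHCB1.2 (-0.68 ± 0.14, adjusted p = 0.00117), LHCB3 (-0.60 ± 0.13), LHCB1.5 (-0.59 ± 0.16), LHCB2.1 (-0.49 ± 0.15), LHCB6 (-0.48 ± 0.14) and LHCB1.3 (-0.45 ± 0.14), and the other 10 ranged from -0.42 (LHCB5) to -0.21 (PSAO). LHCB1.2 was at 6278, 3549 and 4627 CPM in HM-W 1, 2 and 3, so that HM-W 1 lay inside the range of Ler. Only LHCB1.2 (-0.50 ± 0.14) and LHCB3 (-0.44 ± 0.13) passed without HM-W 2, and 8 genes passed without HM-W 3. Of the RBCS genes RBCS1B fell in HM-W (-0.30), with a list median of -0.15.

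Med-F, which is not a mimic, also had low levels. In it 24 genes fell and 0 rose, where 22.7% of all genes changed, 9.87% down and 12.9% up: 7 of 18 antenna, 10 of 12 photosystem I and 7 of 10 photosystem II genes. The 6 largest decreases were LHCB1.4 (-0.88 ± 0.17, adjusted p = 0.000719), PSAN (-0.73 ± 0.17), PSAF, the plastocyanin-docking subunit (-0.68 ± 0.14), LHCB2.2 (-0.65 ± 0.12), LHCB2.1 (-0.61 ± 0.15) and LHCB2.3 (-0.60 ± 0.13). The other 18 ranged from -0.54 (PSBQ2) to -0.23 (PSAH1). LHCB1.4 was at 1244, 1168 and 863 CPM in Med-F, below every parent library (1595 to 2392 CPM).

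PSAF was at 2659, 2719 and 1591 CPM in Med-F 1, 2 and 3, also below the parents (3021 to 4236 CPM), with Med-F 3 lowest. The oxygen-evolving genes PSBO1, PSBO2, PSBP1, PSBQ1 and PSBQ2 all fell in Med-F, with changes from -0.39 to -0.54. In HM-S PSBO1, PSBO2 and PSBP1 fell and PSBQ1 and PSBQ2 did not pass. LHCB1.2, the leading gene in HM-S, was at 6773 ± 627 CPM in Med-F and did not pass. Medians in Med-F were -0.27 for antenna, -0.30 for photosystem I and -0.40 for photosystem II genes. Without Med-F 3 the count was 14. In Med-F all 3 flower markers rose (AP3 by 1.84, AP1 by 1.45 and PI by 0.45) from low levels, with sums of 13.3 to 21.3 CPM, and 2 of 3 epidermis markers fell (FDH at -0.55 and ATML1 at -0.40). The median of the 4 RBCS genes was -0.15. The part of these markers in the result was not tested. Levels in Med-F and HM-S were not tested against each other.

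The remaining 3 F6 lines had few calls. In HM-G 0 genes passed by edgeR and by DESeq2 (13.4% of all genes changed, 7.23% up and 6.16% down), 2 had an unadjusted p under 0.05, and the estimate was above 0 at 32 of 40. With only HM-G and the parents in the fit 4 passed. Of the 4 RBCS genes 2 rose in HM-G (RBCS1A at 0.30 and RBCS3B at 0.28). The spread within HM-G was small, with antenna sums of 86869 to 87054 CPM. In Med-E 1 gene fell, LHCA3 (-0.46 ± 0.14, adjusted p = 0.0338; 14.6% of all genes changed, 7.06% down and 7.5% up), and it did not pass without C24 C, Ler A, Ler C, Med-E 2 or Med-E 3. In Sml-D 3 genes fell, PSAD2 (-0.38), PSBQ2 (-0.29) and LHCB4.2 (-0.28), where 13.1% of all genes changed (6.37% down and 6.73% up). That count was 1 without C24 B, and 0 without C24 C, Ler A, Ler C or any library of Sml-D.

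**Figure D3:**
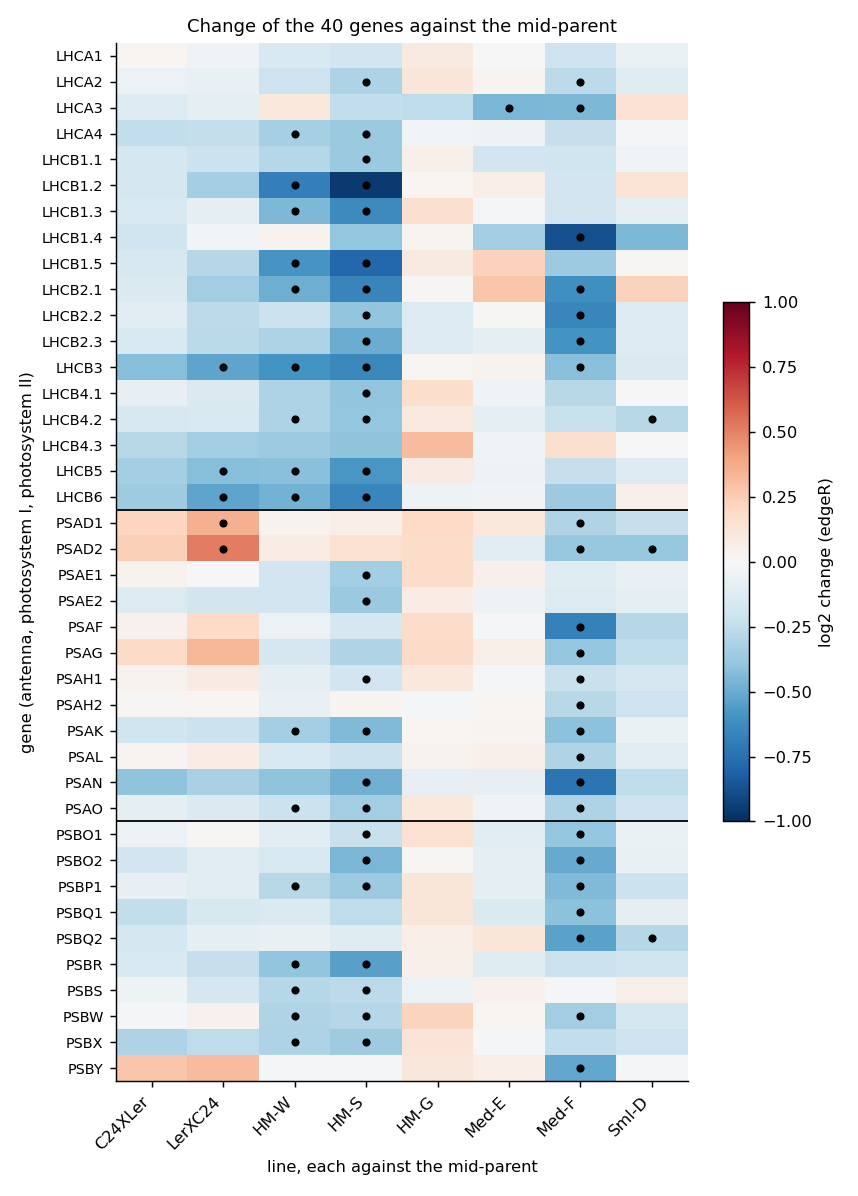
Log2 change (edgeR, colour) of each of the 40 genes (rows, grouped as antenna, photosystem I and photosystem II) in each F1 hybrid and F6 line (columns) against the mid-parent, with a dot where the adjusted p was under 0.05. All columns use the same parent libraries. LHCB genes have 12 of 14 dots in HM-S, 8 in HM-W and 5 in Med-F, PSA genes 6 of 12, 2 and 10, and PSB genes 7 of 10, 5 and 7, while HM-G has 0 dots.

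The balance between the subsets was also described by line. The ratio of summed antenna to summed photosystem I CPM was 3.52 ± 0.10 in C24 and 3.45 ± 0.13 in Ler, and 2.78 ± 0.09 in LerXC24 and 2.80 ± 0.15 in HM-S. In Med-F it was 3.66 ± 0.03 and in Sml-D 3.87 ± 0.04, above all libraries of the parents, whose highest was 3.57. It was 3.33 ± 0.03 in HM-G and 3.40 ± 0.06 in Med-E. Both C24XLer (3.01 ± 0.39) and HM-W (2.97 ± 0.50) were split: C24XLer B and C were at 2.70 and 2.88 and C24XLer A at 3.45, while HM-W 2 and 3 were at 2.57 and 2.82 and HM-W 1 at 3.52. Apart from those 2 libraries, the hybrid, HM-W and HM-S libraries lay between 2.57 and 2.95, and the other 18 libraries between 3.30 and 3.91. The sums are weighted to LHCB1 genes with close copies. In a comparison added after the data were seen, the mean log2 CPM of antenna minus photosystem I genes was taken. Over all members it was 0.471 to 0.638 in HM-S libraries and 0.499 to 0.542 in LerXC24, below the parents (0.739 to 0.889). It ran from 0.442 to 0.853 in HM-W and from 0.499 to 0.826 in C24XLer. The members without close copies or overlaps gave another picture, and which of the dropped antenna and photosystem I genes made the difference was not tested. The antenna genes kept there were LHCA1, LHCA2, LHCA3, LHCB4.1, LHCB4.3 and LHCB5. Over them the value was -0.41 ± 0.08 in HM-S and -0.38 ± 0.22 in HM-W, within the spread of C24 (-0.39 ± 0.04) and Med-E (-0.41 ± 0.03). LerXC24 was lowest at -0.57 ± 0.03 (libraries from -0.60 to -0.55), below every library of both parents, and C24XLer was at -0.47 ± 0.17. Ler was at -0.18 ± 0.05, Sml-D at -0.13 ± 0.02 and Med-F at -0.10 ± 0.05. Every HM-S library (-0.49 to -0.34) lay below every Ler library (-0.24 to -0.14), while HM-W (-0.59 to -0.15) overlapped Ler. These balances describe the chosen genes and were given no test.

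**Figure D4:**
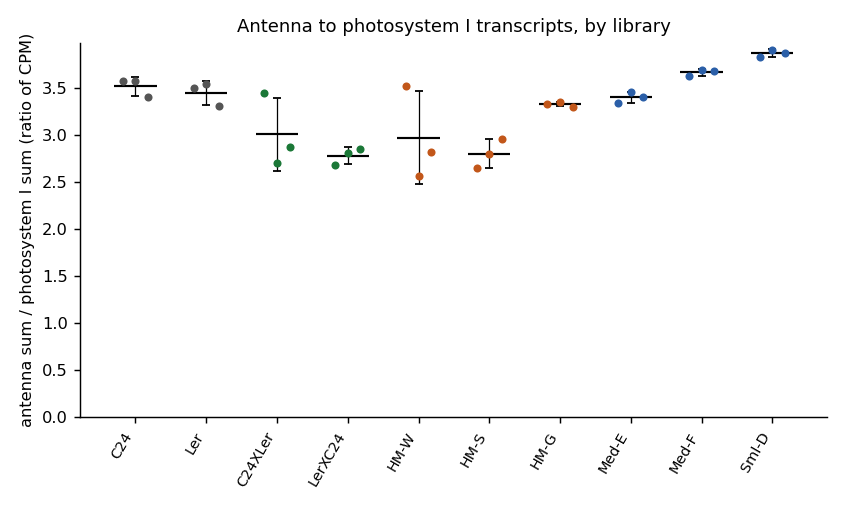
Ratio of summed antenna CPM to summed photosystem I CPM (vertical axis) in each library (points), by line, with mean (bar) and SD (whiskers) of 3 libraries and colours for parents (grey), F1 hybrids (green), hybrid mimics (orange) and other F6 lines (blue). LerXC24, HM-S and 2 of the 3 libraries of C24XLer and HM-W lie below 3, and C24XLer A (3.45) and HM-W 1 (3.52) lie with the parents. Over members without close copies or overlaps, the log2 difference did not set HM-S and HM-W apart from C24, while every HM-S library lay below every Ler library.

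The hybrid mimics were compared as a class with the other F6 lines. With the line as replicate (3 lines against 3) 0 of 40 genes passed by edgeR, where 1.48% of 29951 genes did (0.805% higher and 0.678% lower in the mimics), 1 had an unadjusted p under 0.05 and DESeq2 called 1. HM-G was apart from HM-W and HM-S in the antenna, and Med-F apart from Med-E and Sml-D. LHCB1.2 ran from 3549 to 7923 CPM over the 9 mimic libraries (median 4627) and from 6068 to 8875 over the 9 others (median 7971). It averaged 3989 CPM for HM-S, 4818 for HM-W and 7828 for HM-G, beside 6773 for Med-F, 8107 for Med-E and 8479 for Sml-D (-0.48 ± 0.26, adjusted p = 0.364). LHCB1.4 ran from 1262 to 2322 CPM (median 1926) and from 863 to 1928 (median 1303). It averaged 1531, 2054 and 2049 CPM in the mimics and 1092, 1575 and 1469 in the others, in the same order (0.45 ± 0.19, adjusted p = 0.257).

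PSAD2 was the member with an unadjusted p under 0.05 in that comparison, at means of 1121, 1066 and 1146 CPM in the mimics and 778, 941 and 776 CPM in the others, again in that order. Its libraries ran from 833 to 1266 CPM (median 1144) and from 614 to 1087 (median 810), which overlap, while the line means do not. The difference was 0.42 ± 0.11 (adjusted p = 0.126). PSAF ran from 3072 to 4464 CPM (median 3689) in mimic libraries and from 1591 to 4420 (median 3024) in the others. By line PSAF was at 3306, 3569 and 4210 CPM against 2323, 3677 and 3040 CPM (0.30 ± 0.19, adjusted p = 0.44). PSBS, the sensor of energy-dependent quenching, was at 1674, 1643 and 1923 CPM against 1993, 2065 and 2085 CPM (-0.22 ± 0.11, adjusted p = 0.315), with all mimic means below the others. Its libraries overlapped, from 1471 to 2019 CPM (median 1755) and from 1817 to 2242 (median 2055). PSBQ2 ran from 2005 to 2520 CPM (median 2260) and from 1469 to 2950 (median 1947). By line PSBQ2 was at 2178, 2241 and 2472 CPM against 1632, 2576 and 1939 CPM (0.17 ± 0.18, adjusted p = 0.644). Counting the 18 sibling libraries as replicates gave 11 calls, which treats siblings of a line as independent.

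A clock index moved with several of these groups. It is the mean log2 CPM of 5 evening genes (TOC1, LUX, GI, ELF4 and PRR5) minus that of 6 morning genes (CCA1, LHY, PRR9, LNK1, LNK2 and RVE8), and the labels give no harvest time. It was highest in LerXC24 (0.20 ± 0.71), HM-W (-0.02 ± 0.26) and HM-S (-0.16 ± 0.08), and lowest in Sml-D (-1.60 ± 0.07) and Med-E (-1.82 ± 0.31). It was -0.48 ± 0.60 in C24, -1.38 ± 0.18 in Ler, -0.88 ± 0.20 in C24XLer, -0.45 ± 0.16 in HM-G and -0.44 ± 0.19 in Med-F. Genes within a list did not all move together. Against the mid-parent, 5 of 6 morning genes fell and 2 of 5 evening genes rose in LerXC24. Morning genes fell at 4 of 6 in both HM-S and HM-W. Evening genes rose at 0 in HM-S and 1 in HM-W, and 1 fell in each. Med-F had 2 morning genes up and 3 down, and 1 evening gene up and 1 down. The shares of all genes are those given above for these lines.

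Within lines, 0 of 40 genes changed with the index by edgeR (6.51% of all genes did, 3.39% with a positive and 3.11% with a negative slope), 2 had an unadjusted p under 0.05, PSBS (-0.17 ± 0.06 per unit) and LHCB2.2 (-0.21 ± 0.10), and DESeq2 called 1. The slope was below 0 at 33 of 40. PSBS passed without HM-W 2 (adjusted p = 0.0495), and without HM-W 3 (adjusted p = 0.0333). With the index in the fit the count was 16 in Med-F, 11 in HM-S, 2 between the parents, 1 in the F1 hybrids (PSAD1) and 0 in LerXC24, HM-W, Med-E and Sml-D. LHCB1.2 in HM-S was at -0.84 with the index and -0.95 without it, and LHCB3 in the F1 hybrids at -0.41 and -0.48. The antenna median was -0.40 in HM-S and -0.26 in Med-F with the index, and -0.14 in place of -0.20 in the F1 hybrids.

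At some members the F6 lines fell near 1 parent or the other. These examples were chosen after their values were seen. LHCA3, which differed between the parents, was at 5431 ± 227 CPM in Sml-D and 5288 ± 670 in HM-W, near Ler (5876 ± 254), and at 4110 ± 31 in HM-G, 3576 ± 392 in Med-E and 3583 ± 801 in Med-F, near or below C24 (4090 ± 260). HM-S was spread from 3036 to 5415 CPM over its siblings, and LerXC24 was between the parents (4579 ± 115). C24XLer B and C (4126 and 3803 CPM) lay in the range of C24, and C24XLer A (5466 CPM) between the parents.

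LHCB2.1 and LHCB2.2, whose upstream windows are printed above, lie 22517 bases apart on chromosome 2, and their proportions differed between the parents. The CPM of LHCB2.2 over that of LHCB2.1 was 2.34 to 2.48 in the C24 libraries and 1.52 to 1.61 in those of Ler. It was 1.88 to 2.2 in C24XLer and 1.98 to 2.13 in LerXC24, between the parents. In HM-W (2.28 to 2.41) and HM-S (2.29 to 2.37) it was near C24, and in Med-E (1.59 to 1.63) and Sml-D (1.43 to 1.6) near Ler. HM-G was at 1.7 to 1.81, and the siblings of Med-F ran from 1.65 to 2.4. How reads that match both copies were counted is not stated, and its part in these proportions was not tested.

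**Figure D5:**
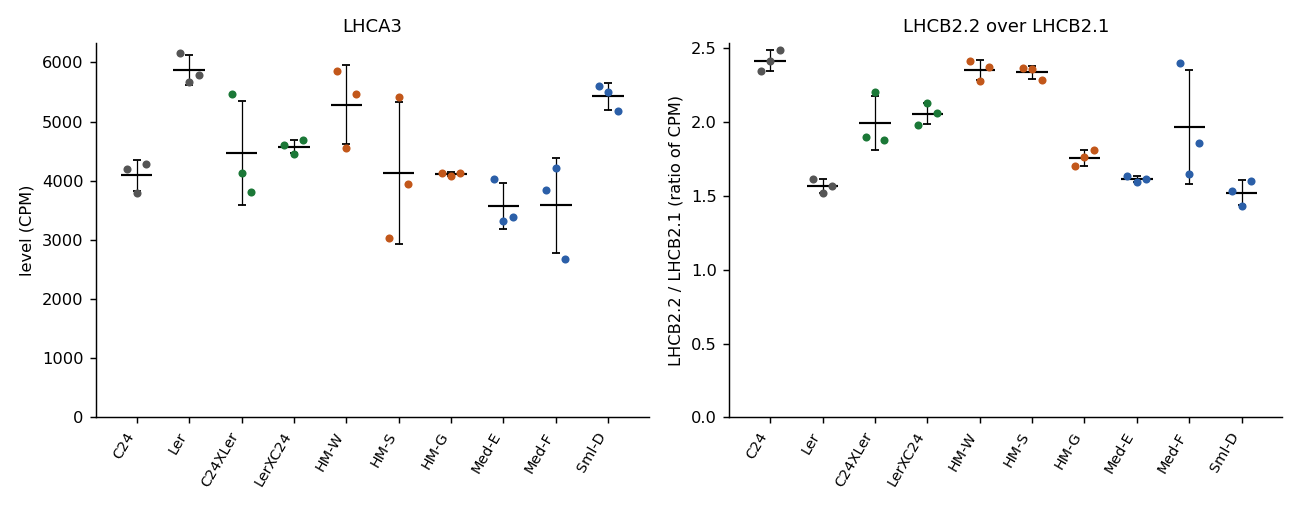
Level of LHCA3 (CPM, left) and ratio of LHCB2.2 to LHCB2.1 CPM (right) in each library (points), by line, with mean (bar) and SD (whiskers) of 3 libraries and colours for parents (grey), F1 hybrids (green), hybrid mimics (orange) and other F6 lines (blue). The parents are apart in both panels. All F1 libraries lie between them on the right, as do those on the left except C24XLer B and C, which lie with C24, with HM-S spread in the left panel and Med-F in the right.

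Other pairs differed as well. LHCB1.3 over LHCB1.4, both of the main antenna, had a ratio of CPM of 11.2 ± 0.96 in Med-F, 4.86 ± 0.47 in HM-W and 5.96 ± 1.49 in HM-S. Line means were 6.62 to 8.95 in the parents, hybrids, HM-G, Med-E and Sml-D. Libraries of Med-F (10.3 to 12.2) overlapped those of Sml-D (7.32 to 10.7), and HM-W (4.4 to 5.34) overlapped HM-S (4.65 to 7.59). Values of single LHCB1 genes are uncertain, as said above. PSBO1 over PSBO2, which encode forms of the manganese-stabilising protein, was 3.72 ± 0.07 in Ler and 4.24 to 5.06 in the other lines.

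Related genes were read from lists chosen with results of these data known. Of 12 nuclear genes of electron transport, ATP synthase and their partners, 7 fell (58.3%, beside 9.87% of all genes) and 0 rose in Med-F, with FD2, the main leaf ferredoxin, at -0.88 ± 0.20 and ATPD at -0.48 ± 0.09. In HM-S 2 fell (16.7%, near the 14.4% of all genes) and 0 rose, PGR5 (-0.29) and PGRL1A (-0.30), which act in cyclic electron flow. In HM-W PGR5 and PGRL1A fell (16.7%, beside 12.1%) and PETE1, a plastocyanin gene, rose (0.35). In the F1 hybrids PGR5 (-0.34 ± 0.08) and PGRL1A (-0.25) fell (16.7%, beside 4.45%) while PETE1 (0.26) and ATPG (0.20) rose.

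Of 10 minor antenna and photosystem genes outside the 40, 4 fell in HM-S (40%, beside 14.4%), namely LHCB7 (-0.64 ± 0.14), LHCA6 (-0.43), LHCA5 (-0.34) and OHP1 (-0.33), and 0 rose. HM-W also had 4 down (40%, beside 12.1%) and 0 up. In the F1 hybrids LHCA5, LHCA6 and OHP1 fell by -0.31 to -0.35 (30%, beside 4.45%). PSBTN, a small photosystem II subunit, rose there by 0.37 ± 0.07 (10%, beside 7.1%). In Med-F 4 fell (40%, beside 9.87%), PSBTN (-0.38) among them. Of 10 measured genes of antenna regulation and insertion, 4 fell in HM-S (40%, beside 14.4%), 3 in HM-W (30%, beside 12.1%) and 3 in Med-F (30%, beside 9.87%). CAO, which makes chlorophyll b, fell in HM-W (-0.59 ± 0.13), HM-S (-0.47 ± 0.13), Med-F (-0.36 ± 0.13) and LerXC24 (-0.58 ± 0.13). STN7, the kinase of state transitions, fell in HM-W (-0.29), HM-S (-0.24) and Med-F (-0.25), and its opposing phosphatase TAP38 in HM-W (-0.34) and HM-S (-0.35). HY5, a light-signalling transcription factor, fell in HM-S (-0.70 ± 0.20) and Med-F (-0.55 ± 0.20). CAO, STN7 and HY5 also fell with the clock index within lines (slopes of -0.41, -0.22 and -0.53 per unit). GLK1 passed in 0 of these comparisons, and GLK2 fell in LerXC24 (-0.26).

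Plastid-encoded core genes went the other way at low levels. All 8 rose in HM-S, 7 of 8 in HM-W and 4 of 8 in Med-F, where 15.1%, 12.6% and 12.9% of all genes rose, and their sum was 337 ± 353 CPM in HM-S and 307 ± 201 in HM-W, beside 113 ± 29 in C24 and 84.6 ± 6.7 in Ler. HM-S 1 held 745 CPM, the highest of any library, and HM-S 2 held 119, so 1 sibling set most of the HM-S mean. HM-W 1 held 528 CPM and HM-W 2 and 3 held 137 and 254, where C24 libraries ran from 94.5 to 146. HM-S 1 and HM-W 1 also had the highest shares of multiple-locus reads, whose part was not tested. The labels do not state a poly(A) step, and its part in these plastid counts was not tested. Among markers of other cell types, 3 epidermis markers summed to 306 to 435 CPM over the lines, 2 phloem markers to 142 to 225, 2 meristem markers to 3.1 to 9.3 and 3 flower markers to 6.2 to 16.6, the last highest in Med-F. Their part in the results was not tested.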

How the data were processed

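The authors deposited 1 table of raw counts per gene (whole numbers, not normalized, per the file headers and the values) for 30 libraries, and a table of read counts per alignment class. FastQC, DESeq and the TAIR10 build are named, per the submitters' processing notes. Aligner, counter and strandedness were not given in the sources used here. Gene counts summed to 46822397 to 60757656 per library, 1.29 to 1.32 times the accepted reads, and 0 value columns were left unused.

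Counts were fitted in R 4.3.3 with edgeR 4.0.16 (quasi-likelihood test, TMM, filterByExpr with a minimum count of 10, 1 coefficient per line, 30 libraries in 1 fit). Calls were made at a Benjamini-Hochberg adjusted p under 0.05 over all genes tested. Counts at an unadjusted p under 0.05 are given without the share of all genes at that threshold. For the mimic class the 3 libraries of a line were summed. Alternatives were DESeq2 1.42.0, its size factors, no filter on low counts, an arithmetic mid-parent, a replicate block, the clock index as a covariate, only the compared lines, and each library left out. The method was tested on simulated data. Positions, exon lengths, overlaps and sequences came from the RefSeq TAIR10.1 annotation. Called members are named with their values. With over 12 called in 1 direction, the 6 largest are named and the rest given by range, and library values are given for the 2 most changed members per subset for the parents, F1 hybrids and mimic class (as lowest, median and highest where a class has 9 libraries). The members and lists were chosen with earlier results of these data known. STN8 was not analysed here.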

Additional observations from a re-analysis of the deposited data

How the results depend on the processing

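Over the counts of members called, 71 of 90 alternatives stayed within 1.5 times the main count, as did 153 of 180 that left out 1 library or line, and 0 of 604 values of single called members changed direction, while 76 lost their call, 57 of these once the clock index was added. Subset medians were varied only for the F1 hybrids, HM-S and Med-F against the mid-parent, and not with libraries left out. None of these 72 alternative medians changed sign, and the largest shift, in the F1 antenna median, was from -0.20 to -0.12 without close copies and overlaps. Adding the clock index gave 2 for C24 against Ler, 1 for the F1 hybrids, 11 for HM-S, and 0 each for LerXC24, HM-W, Med-E and Sml-D; the cause was not tested, and the fit has 1 more term. Fitting the compared lines alone, which changes the estimate of spread, gave 10 for C24 against Ler, 3 for the F1 hybrids, 15 for LerXC24, 4 for HM-G and 8 for Sml-D. With the replicate block they were 1 for C24XLer, 1 for Sml-D and 12 for the mimic class over 18 libraries (11 without the block). DESeq2 gave 1 for C24XLer, 1 for the mimic class and 1 for the clock slope. Same-numbered libraries of F6 lines did not pair: 4 of 45 correlations (-0.243 to 0.178) exceeded 0.1, and 3 of 18 samples were nearest to their own number. Among parents and F1 hybrids 7 of 18 correlations (-0.083 to 0.311) exceeded 0.1, with a median of 0.058 beside -0.048 for other pairs. There 8 of 12 samples were nearest to their own number, so some pairing remains possible in that family.

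Leaving out 1 library, counts ran from 2 to 4 for C24 against Ler, 2 to 19 for the F1 hybrids, 0 to 9 for C24XLer, 2 to 6 for LerXC24, 2 to 19 for HM-W, 16 to 28 for HM-S, 0 to 1 for Med-E, 14 to 24 for Med-F, 0 to 2 for Sml-D and 0 to 1 for the clock slope. The shares of all genes called in these alternative fits are not given, so a changed count need not be particular to these members. With 3 libraries a line, members without a call may still differ.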
